A study of Caenorhabditis elegans with 2 samples.

Results

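Autosomal peaks at divergent gene pairs were the peaks whose summit lay between neighbouring protein-coding genes transcribed away from each other, with both gene starts at most 2000 bp from the summit. They numbered 389 of the 2197 peaks in the list that passed the irreproducible discovery rate (IDR) procedure, a filter on how reproducibly peaks rank in replicates. Of the 1742 IDR peaks on chromosomes I to V they were 22.3% (95% Wilson interval 20.4 to 24.3). Among the IDR peaks the choice used positions only, on the ce11 build (WBcel235), with Ensembl genes. Signals, ranks and sequence were thus free to differ between classes of IDR peaks. The IDR filter itself bears on signals and ranks in every class, and the lowest signal in its list was 29.6. A high rank in each replicate was not required, as 4 members had no match in replicate 1's list of 30000. The farthest members inside the limit, at F13H8.8/F13H8.2 and svop-1/famh-136, had their farther start 1950 and 1938 bp away and signals of 58.1 and 56.6. The nearest peaks outside it, at C03H5.6/clec-10 and lin-13/C03B8.3, had it at 2037 and 2059 bp and signals of 31.4 and 42.4.

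The experiment was a chromatin immunoprecipitation with sequencing (ChIP-seq) against the Hox protein MAB-5 carrying an enhanced green fluorescent protein tag. Chromatin came from whole Caenorhabditis elegans of strain OP27, with the mutation unc-119(ed3) on chromosome III and the insertion wgIs27, which targets mab-5. The animals were second-stage (L2) larvae, both sexes pooled and of unknown age, and mab-5 is given as the antibody's target. There were 2 biological replicates of this 1 group, both with the same alleles. No control sample and no second condition was analysed here, and tissues cannot be told apart in whole animals, so all comparisons are between classes of peaks or gene pairs. Where values of a replicate's own list are given, they come from its 2197 strongest peaks, and other values rest on the IDR list alone. Read depth is unknown. A peak's signal is the authors' score for it, whose scale the sources do not give, and in the IDR list it is 1 value from the pooled replicates with no error of its own. Intervals throughout are 95% intervals and cover counting error over peaks, pairs or genes only. Peaks and genes are not replicates of the experiment.

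Hox proteins are homeodomain transcription factors that give cells their position along the body, and MAB-5 acts in the posterior body, including the left Q neuroblast lineage. On many targets Hox proteins bind with a PBC-class partner (CEH-20 is one in C. elegans) on a composite site. Divergent gene pairs share the DNA between their starts, so a peak there lies upstream of both genes and cannot be assigned to either from its position. In C. elegans many messages receive a spliced leader that replaces their original first bases, so an annotated gene start often lies downstream of the first transcribed base.

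Sequences around 6 summits are given as examples from the strongest of these peaks. The first 3 are the strongest of all members, and the last 3 are among the strongest with a Hox-PBC composite, TGATNNAT, within 100 bp of the summit. All read 5′ to 3′ on the plus strand of WBcel235 in the NCBI RefSeq copy, from 100 bp before to 100 bp after the summit, except that the first stops before the start of tasp-1. Capitals mark TGATNNAT, GCGCGC and CGCTCCAC on either strand.
K01G5.10/tasp-1, chrIII:10759147-10759306: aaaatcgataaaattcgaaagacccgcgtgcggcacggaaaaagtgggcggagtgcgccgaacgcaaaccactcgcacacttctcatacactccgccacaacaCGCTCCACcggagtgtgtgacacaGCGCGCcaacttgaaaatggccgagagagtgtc
rpl-20/Y17G9B.5, chrIV:4749964-4750164: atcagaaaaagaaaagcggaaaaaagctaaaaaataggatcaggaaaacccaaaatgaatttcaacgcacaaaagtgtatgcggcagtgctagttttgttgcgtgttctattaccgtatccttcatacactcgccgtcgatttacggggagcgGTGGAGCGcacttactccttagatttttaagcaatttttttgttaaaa
rpl-15/K11H12.8, chrIV:654830-655030: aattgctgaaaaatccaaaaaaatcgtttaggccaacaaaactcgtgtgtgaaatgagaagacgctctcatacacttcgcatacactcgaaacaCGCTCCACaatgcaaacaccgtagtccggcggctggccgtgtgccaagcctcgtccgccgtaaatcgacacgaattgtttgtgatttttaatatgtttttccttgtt
icd-1/vps-32.1, chrII:6589016-6589216: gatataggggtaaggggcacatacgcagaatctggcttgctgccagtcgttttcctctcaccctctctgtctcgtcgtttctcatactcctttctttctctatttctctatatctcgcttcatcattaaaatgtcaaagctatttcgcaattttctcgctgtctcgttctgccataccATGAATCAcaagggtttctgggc
B0273.115/B0273.1, chrIV:5492309-5492509: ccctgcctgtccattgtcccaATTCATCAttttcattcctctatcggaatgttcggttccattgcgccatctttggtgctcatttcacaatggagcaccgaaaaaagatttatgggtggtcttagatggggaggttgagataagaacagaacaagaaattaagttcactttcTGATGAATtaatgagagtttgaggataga
mrps-7/Y57G11C.3, chrIV:14767792-14767992: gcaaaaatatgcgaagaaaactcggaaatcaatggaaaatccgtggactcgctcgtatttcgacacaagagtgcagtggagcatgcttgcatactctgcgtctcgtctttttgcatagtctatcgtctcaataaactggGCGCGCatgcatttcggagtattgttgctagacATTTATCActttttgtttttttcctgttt
The 3 strongest held no composite. Each held CGCTCCAC or its reverse complement, centred 6, 56 and -2 bp from the summit at K01G5.10/tasp-1, rpl-20/Y17G9B.5 and rpl-15/K11H12.8. In the 3 chosen for a composite, its matches lay at 82 bp from the summit for icd-1/vps-32.1, at -76 and 76 bp for B0273.115/B0273.1 and at 76 bp for mrps-7/Y57G11C.3. A match is a description of the letters and not a binding site.

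Many of the strongest members flanked genes of the ribosome or of protein folding, and they ranked high in both replicates. K01G5.10/tasp-1, whose right gene encodes a taspase-family protease, had a signal of 300.6, rank 23 of the 30000 peaks listed for replicate 1 (signal there 125.2) and rank 26 in replicate 2 (signal 174.7). Its summit lay 60 bp from the start of tasp-1 and 725 bp from that of K01G5.10. The next was rpl-20/Y17G9B.5, at a gene for a large ribosomal subunit protein, with a signal of 268.2 and ranks 26 and 34 in replicates 1 and 2. Both peaks thus stood near the top of both lists. A gene for another large-subunit protein lay at rpl-15/K11H12.8, with a signal of 215.8 and ranks 61 and 36. The peak at drr-2/set-16 lay between a gene for an eIF4H-like RNA-binding protein and a gene for a trithorax-class histone methyltransferase, with a signal of 206.1 and ranks 42 and 44. Its summit was near the middle of the gap, 163 bp from drr-2 and 183 bp from set-16. The mitochondrial chaperonin gene hsp-60 lay on the far side of its peak, 622 bp from the summit against 191 bp for Y22D7AL.10, with a signal of 202.0 and ranks 39 and 47.

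Ribosomal, chaperonin and secretory genes made up most of the others among the 12 strongest. At ska-3/rps-12, a kinetochore gene beside a gene of the small ribosomal subunit, the signal was 200.5 with ranks 43 and 50. At rpl-12/lin-54, where lin-54 encodes the DNA-binding subunit of the DREAM repressor complex, it was 193.7 with ranks 55 and 46, and the summit lay 34 bp from rpl-12 and 359 bp from lin-54. Subunits of the cytosolic chaperonin CCT were at cct-8/Y55F3AR.2 (signal 181.9, ranks 70 and 49) and at mig-5/cct-1 (signal 179.6, ranks 54 and 69). At mig-5/cct-1 the Dishevelled gene mig-5, of the Wnt pathway, and cct-1 lay 180 and 240 bp from the same summit. The remaining 3 were gmps-1/cap-2, genes of GMP synthetase and actin capping protein (signal 176.4, ranks 97 and 52), sec-61.G/F32D8.7, the first a subunit of the protein translocon (signal 174.2, ranks 58 and 70), and rps-20/ekl-4 (signal 173.3, ranks 66 and 67). All 12 ranked within the first 100 entries of both lists.

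Members were stronger, as a class, than other autosomal peaks. Their signal had a median of 49.2 (quartiles 37.9 and 71.7), against 44.1 (35.6 and 63.6) for 548 single-promoter peaks, which lie between genes with exactly 1 neighbouring start facing them within 2000 bp. The 521 peaks inside genes had a median of 42.3 and the 284 other intergenic peaks 41.6. The same order of the first against the rest held in each replicate's own ranks, where a low rank is a strong peak: members had a median rank of 952 in replicate 1 and 934 in replicate 2, single-promoter peaks 1183 and 1073, and peaks inside genes 1255 and 1267. The classes overlap widely in signal. Of the 100 strongest IDR peaks of the whole list, 58 were autosomal and the rest lay outside chromosomes I to V. The 58 were 23 members, 21 single-promoter peaks, 10 inside genes and 4 other intergenic ones. Members are 22.3% of all autosomal IDR peaks and 389 of the 2197 in the whole list.

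Rank 2197 or better in both replicates' lists was reached by 274 of 389 members (70.4%, interval 65.7 to 74.8), against 63.1% of all autosomal IDR peaks. Single-promoter peaks did so in 345 of 548 (63%, interval 58.8 to 66.9), and the difference, members minus single-promoter peaks, was 7.48 points (Newcombe interval 1.33 to 13.4). This difference was not separable from 0 when only the 1098 strongest IDR peaks were used (2.36 points, -1.78 to 6.42), when both starts had to lie within 1000 bp (5.23 points, -1.51 to 11.7), or when matched peaks had to cover 50% of each other (2.03 points, -4.45 to 8.49). No match was found for 4 members in replicate 1 and for 0 in replicate 2. Close members can share a match, as 4 did in each replicate, so that at supr-1/dnj-28 both peaks carry the ranks 656 and 675.

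**Figure D1:**
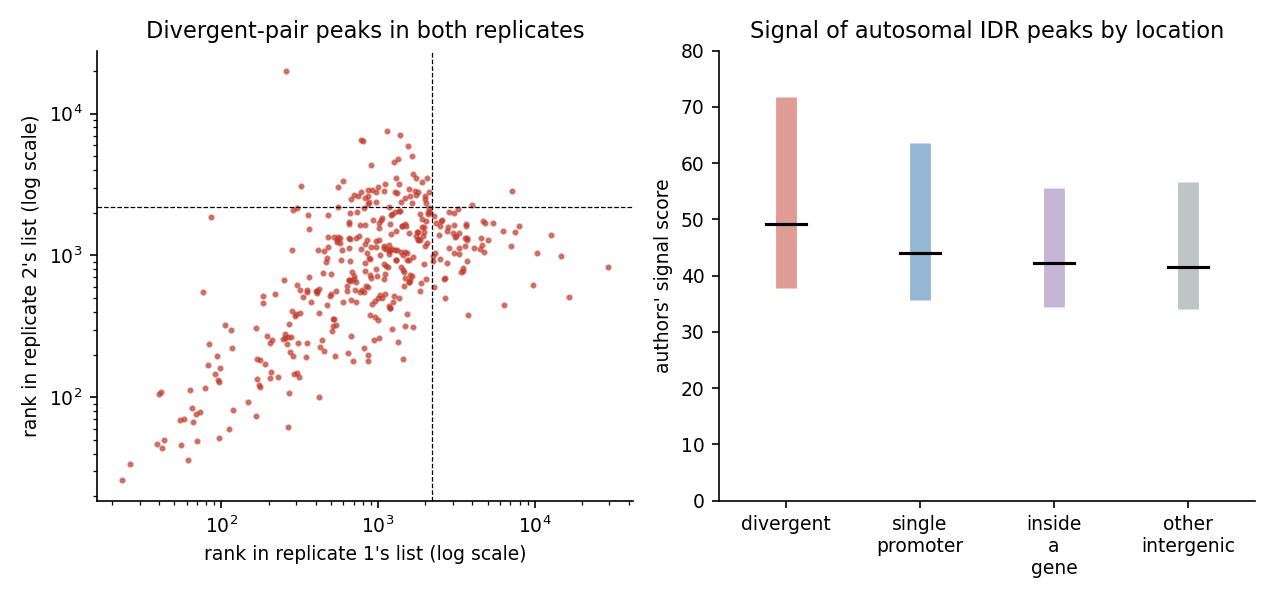
Left, each divergent-pair peak by its rank in replicate 1's list (x, log scale) and replicate 2's list (y, log scale), with dashed lines at rank 2197; right, median (line) and quartiles (box) of the authors' signal score for the 4 location classes of autosomal IDR peaks. Most points, 274 of the 389 members, lie inside both dashed lines, and the divergent class has the highest median, 49.2.

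In either replicate's own strongest 2197 peaks the class had nearly the same size, with 367 members in replicate 1 and 364 in replicate 2. The IDR members lay in 376 of 2888 autosomal divergent pairs with starts at most 4000 bp apart (13%, interval 11.8 to 14.3), and the own lists in 353 and 352 pairs (12.2% each). The replicates shared 263 pairs, which is 74.5% of the pairs of replicate 1 and 74.7% of those of replicate 2. Of the 376 IDR pairs, 261 (69.4%) had a member in both own lists and 4 in neither. In the full lists of 30000, which hold background as well as peaks, 1259 pairs (43.6%) had a summit in replicate 1 and 1286 (44.5%) in replicate 2, and 1281 pairs (44.4%) had none in either.

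Divergent gaps held a summit more often than tandem gaps of the same length class. Of 12584 autosomal gaps of at most 4000 bp between neighbouring protein-coding genes, 6.09% held an IDR summit at any position. The share was 14.8% of divergent gaps (427 of 2888, interval 13.5 to 16.1), 4.31% of tandem gaps, which have 1 start facing them (327 of 7581, interval 3.88 to 4.79), and 0.567% of convergent gaps, which have none (12 of 2115). Divergent gaps exceeded tandem ones by 10.5 points (interval 9.13 to 11.9), by 9.94 points with replicate 1's own list and by 9.66 with replicate 2's. A tandem gap has 1 start to a divergent gap's 2, and the ratio of the shares was 3.43. These are annotated gene starts, and whether each has a promoter of its own was not tested.

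The excess held in each class of gap length, and its ratio was highest in the shortest gaps. Gaps of 251 to 500 bp held a summit in 24.5% of divergent against 5.81% of tandem cases, a difference of 18.6 points (interval 14.8 to 22.7). In gaps of 1 to 250 bp the shares were 9.24% and 1.25%, a ratio of 7.41, and the ratio was 4.21 at 251 to 500 bp, 3.71 at 501 to 1000 bp, 2.31 at 1001 to 2000 bp and 1.71 at 2001 to 4000 bp. At 2001 to 4000 bp the shares were 13.7% and 7.98%, still 5.68 points apart (interval 2.57 to 9.07). In the class of 1 to 250 bp tandem gaps were shorter, a median of 109 bp against 173 bp for divergent gaps. This comparison by orientation was added after the peaks had been seen.

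**Figure D2:**
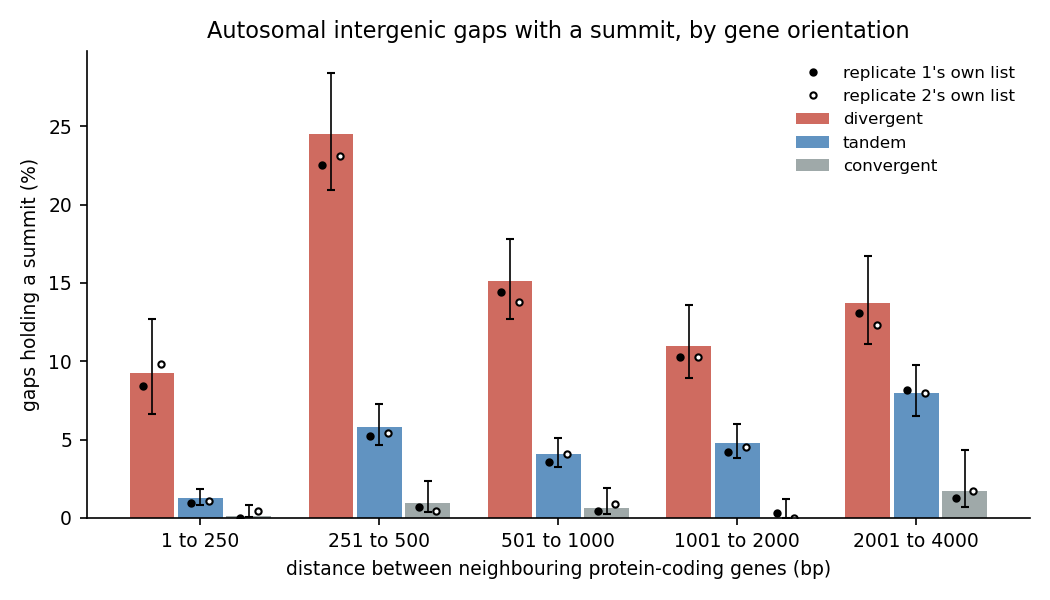
Percent of autosomal intergenic gaps that hold an IDR summit (y), by the distance between neighbouring protein-coding genes in bp (x), for divergent, tandem and convergent neighbours; bars give the IDR list, error bars 95% Wilson intervals, and filled and open points the own lists of replicates 1 and 2. Divergent gaps stand above tandem and convergent gaps in every length class, and their highest bar, 24.5%, is at 251 to 500 bp.

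Most summits lay within 250 bp of the nearer start. That start was a median of 167 bp away (quartiles 92 and 256, range 1 to 1764 bp), and the farther one 416 bp (quartiles 246 and 861, range 75 to 1950 bp). The own lists gave medians of 164 and 168.5 bp to the nearer start in replicates 1 and 2. The nearer start was within 250 bp for 287 of 389 members (73.8%) and within 100 bp for 102 (26.2%). Both starts were within 500 bp for 226 members (58.1%) and within 250 bp for 101 (26%). The called peak interval covered at least 1 start in 167 members (42.9%) and both in 33 (8.48%). The right start was nearer in 212 members and the left in 176, and the median summit lay 52.9% of the way from the left start to the right (quartiles 31.9% and 71.8%).

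**Figure D3:**
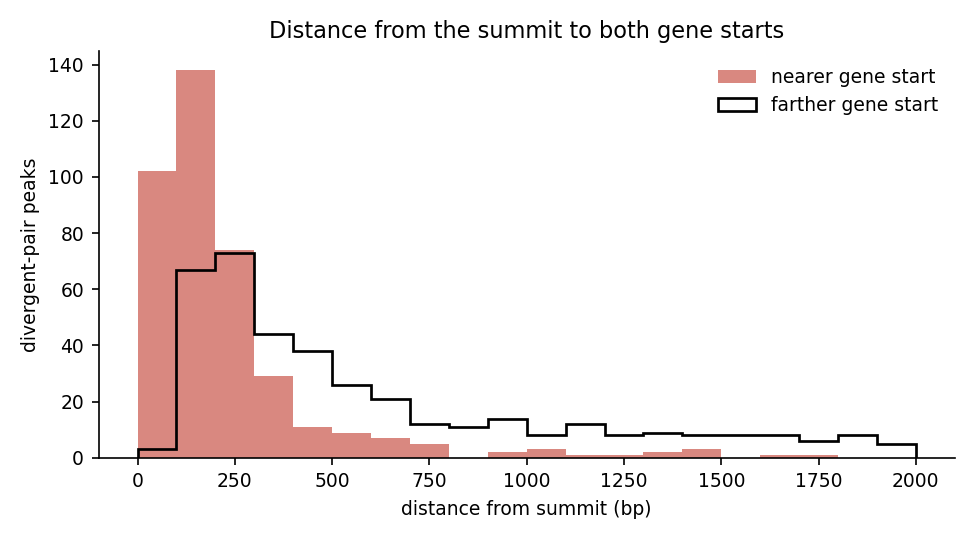
Number of divergent-pair peaks (y) by distance from the summit to the nearer gene start (filled) and to the farther gene start (outline), in bp (x, bins of 100 bp). The nearer starts gather below 300 bp with a median of 167 bp, and the farther ones spread up to the limit of 2000 bp with a median of 416 bp.

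Pairs with a member had their starts closer together, a median of 597 bp over the members (quartiles 362 and 1153), against 903 bp for the 2512 pairs without one (quartiles 446 and 1789). The rule requires both starts within 2000 bp of the summit, so it bears on this distance. A pair whose only summit lies farther than that from 1 start counts as without a member. Of the 2888 pairs 427 held an IDR summit and 376 a member. Among gaps of 2001 to 4000 bp, 78 held a summit, against 30 members there. The difference in distance is thus partly set by the rule. Among members, those in gaps of 1001 to 2000 bp had the highest median signal, 55.4, and those in gaps of 2001 to 4000 bp the lowest, 43.5, with 50.1 at 251 to 500 bp between them.

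Members were spread unevenly over the autosomes. On chromosome III 96 of 453 divergent pairs had a member (21.2%, interval 17.7 to 25.2) and on chromosome I 90 of 497 (18.1%, interval 15 to 21.7). Chromosome V had the lowest share, 58 of 820 (7.07%, interval 5.51 to 9.04), below chromosome II at 10.5% and chromosome IV at 13.1%. The own lists kept III highest, at 18.5% and 20.8% in replicates 1 and 2, and V lowest, at 7.32% and 7.2%. Median signal differed little, between 47.4 on II and 51.6 on IV.

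Most pairs held 1 member. Only 13 of the 376 held 2, with summits 200 to 1757 bp apart (median 951 bp), and 0 held 3 or more. The strongest such pair was ntl-11/Y73F8A.27, where ntl-11 encodes a subunit of the CCR4-NOT deadenylase, with signals of 159.4 and 81.9. At ecps-1/atx-2, beside the ataxin-2 gene, the members were 565 bp apart and nearly equal, at 84.6 and 81.3. At cdk-7/Y39G10AR.11, beside the gene of the TFIIH kinase, the summits lay 1757 bp apart, 1 near each start, with signals of 62.9 and 61.8. At lgg-2/fic-1 and tba-1/cox-5B the 2 members were unequal, at 103.7 and 44.3 and at 86.4 and 46.6.

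The Hox-PBC composite was less frequent at members than at other autosomal peaks. TGATNNAT, searched on both strands within 100 bp of the summit, was held by 43 of 389 members (11.1%, interval 8.31 to 14.6), against 21.8% of all autosomal IDR peaks. Single-promoter peaks held it in 107 of 548 (19.5%, interval 16.4 to 23.1), and the difference, members minus single-promoter peaks, was -8.47 points (interval -12.9 to -3.79). In the own lists the difference was -7.56 points (interval -12 to -2.89) in replicate 1 and -8.67 points (interval -13.2 to -3.87) in replicate 2. With both starts within 1000 bp it was -5.26 points (interval -9.77 to -0.413). Peaks inside genes held the composite in 27.6% and other intergenic peaks in 29.9%. Windows of the same length at the midpoint of the 2512 divergent pairs without a member held it in 15.4% (interval 14 to 16.9). At the midpoint, instead of the summit, the 376 pairs with a member held it in 12% (interval 9.07 to 15.6). These intervals overlap.

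Composite matches showed no rise toward the summit at members. A match within 50 bp of the summit was present in 5.66% of members (interval 3.76 to 8.41), and one 150 to 200 bp from it in 6.43% (interval 4.39 to 9.31). In the own lists these shares were 4.09% and 6.81% in replicate 1 and 4.4% and 7.69% in replicate 2. Peaks inside genes held a composite within 50 bp in 20.3% and at 150 to 200 bp in 9.21%, and other intergenic peaks in 19.7% and 8.45%. Single-promoter peaks lay between, with 13% and 10.2%.

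**Figure D4:**
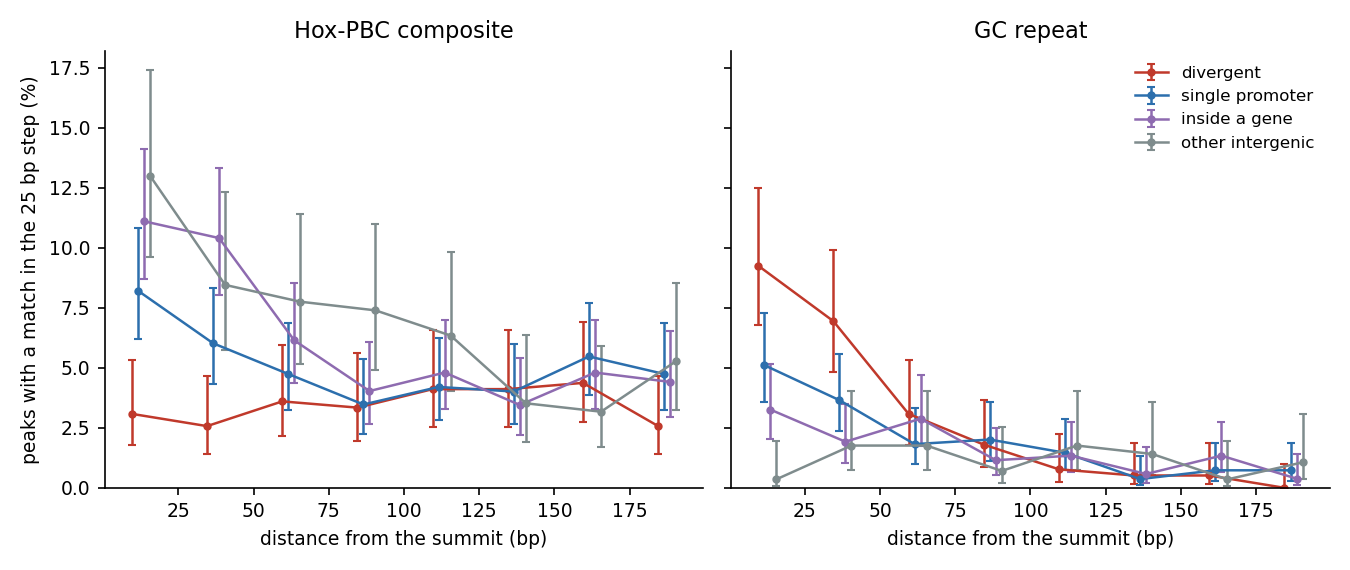
Percent of peaks with at least 1 match in a 25 bp step (y) by distance from the summit in bp on either side (x), for the Hox-PBC composite TGATNNAT (left) and GCGCGC (right), in 4 location classes with 95% Wilson intervals. The composite is flat at divergent-pair peaks and rises toward the summit inside genes. GCGCGC rises toward the summit at divergent-pair peaks, to 9.25% in the step nearest it, and less at single-promoter peaks, to 5.11%.

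Distance to a gene start moved with the composite. The 199 members at most 167 bp from their nearer start held it in 11 cases (5.53%), and the 190 farther ones in 32 (16.8%). Among single-promoter peaks split at the same distance the shares were 19 of 117 (16.2%) and 88 of 431 (20.4%). Near a start the difference, members minus single-promoter peaks, was -10.7 points (interval -18.8 to -3.78). Beyond 167 bp the difference was -3.58 points with an interval that includes 0 (-9.75 to 3.36). Single-promoter peaks lay a median of 375 bp from their start, and members 167 bp from the nearer start and 416 bp from the farther one. For members the smaller of both distances is taken, so these medians do not show that members lie closer to starts. The split at 167 bp, here and for other motifs, likewise uses the nearer start of members and the only counted start of single-promoter peaks. Start distances up to 2000 bp also defined both classes. By the distance between starts, the share at members was 6.06% in gaps of 1 to 250 bp, 8.8% at 251 to 500 bp, 9.24% at 501 to 1000 bp, 14.6% at 1001 to 2000 bp and 23.3% at 2001 to 4000 bp, the first and last resting on 33 and 30 members. Whether start distance sets the lower share was not tested beyond this split.

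The alternating sequence GCGCGC went the other way. It was held by 77 of 389 members (19.8%, interval 16.1 to 24), against 11.5% of all autosomal IDR peaks and 12% of single-promoter peaks, a difference from these of 7.75 points (interval 3.03 to 12.7). The own lists gave 7.66 points in replicate 1 (interval 3 to 12.5) and 8.63 points in replicate 2 (interval 3.81 to 13.7). Midpoints of pairs without a member held it in 2.99% (75 of 2512), and midpoints of pairs with a member in 12% (45 of 376). Matches gathered at the summit, within 50 bp in 15.4% of members and at 150 to 200 bp in 0.514%. The same held to a lesser degree at single-promoter peaks, with 8.58% and 1.46%, and inside genes, with 5.18% and 1.73%. Other intergenic peaks had 2.11% and 1.41%. Split at 167 bp from the start, the difference from single-promoter peaks was 8.94 points near (interval -0.133 to 17) and 5.24 points beyond (interval -0.502 to 11.8), and both intervals include 0.

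GAGAGAGA was rarer at members, in 24 of 389 (6.17%, interval 4.18 to 9.02), against 13.6% of all autosomal IDR peaks and 15.7% of single-promoter peaks, a difference of -9.52 points (interval -13.4 to -5.53). It was -8.65 points in replicate 1's own list (interval -12.5 to -4.62) and -7.79 in replicate 2's (interval -11.4 to -4.04), and its intervals excluded 0 on both sides of 167 bp. Pair midpoints, which are not centred on a summit, held it in 1.75% without a member and 1.86% with one. For the other 10 motifs searched the interval of the difference from single-promoter peaks included 0 with the IDR list. The homeodomain core TAATTA was held by 7.97% of members and 5.29% of single-promoter peaks, against 5.34% of all autosomal IDR peaks. Its share at pair midpoints was 11.5% without a member and 12.5% with one. The CCAAT box was held by 30.8% of members and 31.8% of single-promoter peaks, against 31.2% of all.

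Of the remaining motifs, the homeodomain core TAATGA was in 7.46% of members and 6.75% of single-promoter peaks, against 7.81% of all autosomal IDR peaks. The GATA site GATAAG was in 3.34% and 5.11%, against 5.97% of all, and the E-box CACGTG in 4.37% and 4.74%, against 5.74% of all. TTCCCGC, part of the E2F site, was in 4.63% and 4.38%, against 4.13% of all. TATAAA was in 12.3% and 14.6%, against 12.5% of all, GGGCGG in 12.1% and 10% against 11.1%, and TTTTTTTT in 15.9% and 13.3% against 12.4%. GCGCAGGG, known from recruitment sites of X-chromosome dosage compensation, was in 0 of 389 members (interval 0 to 0.978), against 0.0574% of all autosomal IDR peaks.

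GC content peaked sharply at the summit. Over the window of 201 bp it had a median of 40.8% at members, against 42.8% at single-promoter peaks, 43.3% inside genes and 44.3% at other intergenic peaks. Midpoints of divergent pairs had 32.8% without a member and 35.1% with one. In the 20 bp step at the summit the mean was 52.3% at members and 49.5% at single-promoter peaks, while the step at the midpoint of pairs without a member had 34.3%. Midpoints are not aligned to a summit, so an average over them would flatten a local rise. The contrast with summits thus also carries the placement of the window. Members at most 167 bp from a start and members beyond had medians of 39.3% and 42.3%, and single-promoter peaks split in the same way 38.8% and 43.3%. What part base composition has in the motif shares was not tested.

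**Figure D5:**
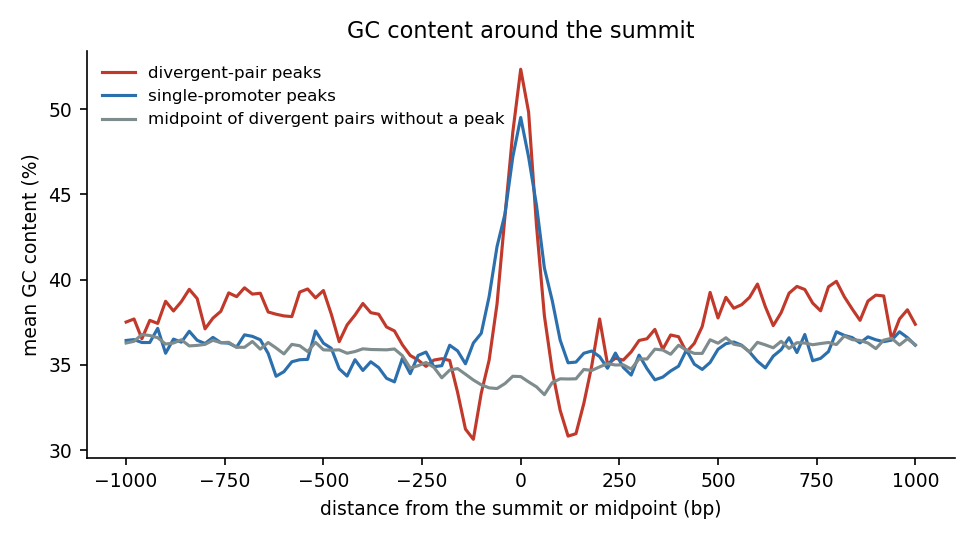
Mean GC content in 20 bp steps (y, percent) by distance from the summit or pair midpoint in bp (x), for divergent-pair peaks, single-promoter peaks and the midpoints of divergent pairs without such a peak. Both classes of peaks rise to a sharp maximum at the summit, 52.3% at divergent-pair peaks and 49.5% at single-promoter peaks. The midpoints show no such rise, with 34.3% at the midpoint itself, but they are not aligned to a summit.

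Words of 8 bases gave a further description, made after the peaks had been seen and with no test. Of the words held by at least 20 members, numbering 306, the one with the highest ratio to pair midpoints without a member was CTGGCGCA, in 30 members (7.71%) and 4 of 2512 midpoints (0.159%). Single-promoter peaks held it in 4.01% and other intergenic peaks in 0.352%. Midpoint windows are not centred on a summit, so the ratio also carries the placement of the window. CGCTCCAC, capitalised in the 3 strongest windows above, was in 25 members (6.43%), 2.55% of single-promoter peaks and 0.597% of midpoints. It was singled out from the listed words because all 3 of those windows hold it. Of the 12 strongest members described above 4 held it, and of the 50 strongest members 9 (18%). CGCTCCAC was held by 25 of 367 and 22 of 364 members of the own lists of replicates 1 and 2. ACCGTACC was in 6.17% of members, 0.547% of single-promoter peaks and 0.916% of midpoints. By contrast AGACGCAG, in 11.6% of members and 1.51% of midpoints, was more frequent at single-promoter peaks, at 20.3%.

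Genes flanking members numbered 752 of the 17242 autosomal protein-coding genes, 4.36%, and 13% of the 5776 genes in divergent pairs. Lists of gene groups were read against these shares, as counts without a test. In a divergent pair both genes are counted, so a list's count can come from its members' neighbours.

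Ribosomal protein genes had the highest share. Of 79 autosomal genes for cytosolic ribosomal proteins 51 are in divergent pairs, and 35 flanked a member (44.3% of the list, 68.6% of those in pairs), 34 in replicate 1's own list and 33 in replicate 2's. They did so through 32 peaks with a median signal of 58.5, of which 27 ranked within the first 2197 in both replicates and 1 held a composite. In the 29 peaks with 1 ribosomal gene, that gene was the nearer one in 10, so the neighbour's start was closer in most. The neighbour was a ribosomal gene too at rps-14/rpl-36 (signal 61.0), rpl-39/rps-30 (signal 55.9) and rps-10/rpl-24.1 (signal 53.0).

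The proteasome and chaperonin list had the next highest share of a whole list. Of 41 proteasome and CCT chaperonin genes, 30 are in pairs and 13 flanked a member (31.7% of the list, 43.3% of those in pairs), also 13 in each own list. Besides the cct peaks these included hsp-110/rpn-3, an Hsp110 chaperone gene beside a gene of the proteasome's regulatory particle (signal 125.2, ranks 91 and 146). Heat shock and DnaJ genes flanked members in 7 of 46 cases (21 in pairs), led by hsp-60. Membrane trafficking and vacuolar ATPase genes did so in 18 of 98 (47 in pairs), led by sec-61.G, and also at apb-1/mdt-19 (signal 130.3, ranks 96 and 128), where apb-1 encodes an adaptor-complex subunit and mdt-19 a Mediator subunit. This list too goes by name prefix and omits unc-32, a vacuolar ATPase gene at lin-9/unc-32 (signal 146.0), named after its value was seen. The summit there lay 165 bp from lin-9 and 1319 bp from unc-32. Of 45 genes of RNA polymerase II and Mediator 10 are in pairs and 5 flanked a member, the strongest at apb-1/mdt-19. There the summit lay 776 bp from mdt-19 and 243 bp from apb-1. The 5 are 50% of those in pairs, but 10 genes are too few to read a share.

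Genes of translation and of mitochondria were also above the share of all genes. Translation factor and tRNA synthetase genes flanked members in 9 of 68 cases (35 in pairs, 11 and 10 in the own lists), and those 9 peaks had a median signal of 80.5 and a summit a median of 50 bp from the nearer start. The strongest was at iff-2/F54C9.14, beside a gene for eIF5A (signal 167.9, ranks 112 and 60, 74 bp from iff-2). Mitochondrial ribosomal protein genes did so in 9 of 70 (29 in pairs), the strongest at mrps-7/Y57G11C.3 (signal 100.04), which ranked 76 in replicate 1 and 554 in replicate 2. Nuclear genes of the respiratory chain and ATP synthase did so in 8 of 39 (21 in pairs), led by mcrs-1/atp-1 (signal 111.7, ranks 271 and 108), 8 bp from the start of the ATP synthase alpha-subunit gene. That count differed between the replicates' own lists, 4 in replicate 1 and 10 in replicate 2. The list takes genes by name prefix and omits those named ndua, ndub and nduv, which also encode complex I subunits, so its count is a low one. Such genes lay at cup-14/ndub-8 (signal 109.6), rbc-2/ndua-8 (signal 102.1), mdf-2/nduv-3 (signal 61.8) and dnj-29/ndua-2 (signal 33.9), named after their values were seen.

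Among nuclear functions, splicing factor genes flanked members in 11 of 44 cases (28 in pairs), with 11 in replicate 1's own list and 6 in replicate 2's. The strongest was at clu-1/prp-40 (signal 91.3), and rsp-2/rsp-1 lay between genes for SR proteins (signal 89.7, ranks 354 and 241). Chromatin modifier genes did so in 10 of 59 (25 in pairs), set-16 having the strongest. Nuclear pore and transport genes did so in 8 of 40 (28 in pairs), the strongest at npp-8/ced-2 (signal 91.3), and cell cycle and replication genes in 10 of 56 (32 in pairs), the strongest at eef-1A.1/rfc-4 (signal 105.8, ranks 314 and 139).

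Histone genes are almost all in divergent pairs, 63 of 69, and 10 flanked a member, 15.9% of those in pairs against 13% for all pair genes. The strongest was at wapl-1/htz-1, beside the gene for the H2A variant H2A.Z (signal 79.7, ranks 185 and 460). In 4 peaks both genes were histone genes: his-67/his-68, his-61/his-62, his-31/his-32 and his-60/his-59, with signals of 73.4, 58.0, 54.0 and 48.6. Histone genes have near-identical copies, and the sources do not say how the authors treated reads that map to several of them.

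Large gene families had low shares. Chemoreceptor genes flanked members in 5 of 1277 cases, 1.37% of the 366 in divergent pairs. Nuclear hormone receptor genes did so in 1 of 246 (65 in pairs), nhr-142 (signal 74.9), F-box genes in 2 of 305 (111 in pairs), the strongest at efl-1/fbxa-90 (signal 127.3), and collagen genes in 3 of 131 (40 in pairs), the strongest at col-71/Y49F6B.2 (signal 44.8, ranks 3398 and 765). Neuropeptide genes did so in 0 of 106 (21 in pairs) and homeobox genes named ceh in 0 of 45 (9 in pairs). None of the 8 autosomal Hox and Hox cofactor genes is in a divergent pair of this kind. Of the 27 Wnt pathway genes 5 are in pairs and 1 flanked a member, mig-5, with 2 in each replicate's own list. The numbers in pairs are too small to read a share for the ceh, Hox and Wnt lists, as for RNA polymerase II and Mediator. Genes with a name, as opposed to a sequence identifier, were 540 of the 752 genes at members (71.8%), against 55.3% of the genes of pairs without one. Where 1 gene of a pair was named, it was the nearer in 67 of 153 peaks.

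Some gaps with a member also hold a non-coding gene. Genes for tRNA lay in 5 of 376 gaps with a member (1.33%), against 14 of 2512 without (0.557%), and snoRNA genes in 4 (1.06%), against 14 (0.557%). The summit lay 3 to 306 bp from the start of the tRNA gene in these gaps. For snoRNA genes it lay 62 and 64 bp from the start at attf-2/F09G2.2 and let-70/klc-1, and 912 bp from it at ZK484.6/oaz-1. At tif-1A/pxd-1 the summit of the stronger member lay 1157 bp away. At gcy-33/cpr-9 (signal 46.6) it lay 3 bp from the start of the tRNA gene WBGene00014406. At tim-1/Y75B8A.23 (signal 118.8, ranks 174 and 123) it lay 18 bp from that of sls-2.8, annotated as an snRNA gene, and at eef-1A.1/rfc-4 1 bp from that of the microRNA gene cel-mir-5549. Genes annotated as ncRNA lay in 16% of gaps with a member, against 8.6% without. Genes for piRNA lay in 1.06% with a member, against 3.94% without, and pseudogenes in 0 of 376, against 120 of 2512 (4.78%). Gaps with a member were shorter, partly through the rule as given above, and the part of gap length in these shares was not tested.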

How the data were processed

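The authors deposited peak lists, not reads. Each peak carries a signal score, described in a text record deposited with each sample only by the kind of list it belongs to, and the −log10 of a q-value deposited beside it, which is at its highest value, 3.66, for all 2197 IDR peaks and was not used. Per that record, relaxed lists of 30000 peaks, made for each replicate and for both pooled, were the input of the IDR procedure. Neither aligner nor peak caller, nor the threshold on IDR, is given in the sources used. Lists on ce10, and peaks on X and the mitochondrial genome, were left out.

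Summits were placed among the protein-coding genes of Ensembl release 115 using pandas 2.3.3, numpy 2.4.6 and scipy 1.17.1 under Python 3.11.15. Plots were made in matplotlib 3.10.9. An IDR peak took the best rank among a replicate's peaks that overlapped it by 1 bp or more. A divergent pair was a minus-strand gene followed by a non-overlapping plus-strand gene with starts at most 4000 bp apart. The steps were tested on simulated data. Shares have Wilson intervals, and differences of shares Newcombe intervals. No p-value was computed, since 1 group without a control allows no test over samples. Named members were the 12 of highest signal that rank within the first 2197 in both replicates and the strongest of each of 21 gene lists with a gene at a member, 1 of which is not reported here. The windows printed for a composite were the 3 strongest with one outside chromosome I. Others are marked where they were chosen after their values were seen. The members, gene lists and 13 motifs were chosen with earlier results of these data known. The chemoreceptor list's name patterns were corrected after a first count had included genes of another family. Alternatives were the own list of each replicate, the 1098 strongest IDR peaks, other distances, windows and overlaps, the middle of the peak in place of the summit, and 1 peak per pair. Of the columns of per-sample values, 0 were left unused.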

Additional observations from a re-analysis of the deposited data

How the results depend on the processing

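Of 162 alternative values, 137 stayed within the range counted as unchanged. Only the differences between classes of peaks or gaps have a direction, and 0 of them reversed. Values counted as unchanged could still shift: divergent gaps exceeded tandem ones by 6.5 points with the 1098 strongest IDR peaks, against 10.5 with all. With the 1098 strongest IDR peaks, members numbered 236, lay in 7.89% of divergent pairs, had 95.8% strong in both replicates and a median GC content of 41.3%, and their median signal stood at percentile 53 of autosomal peaks, against 60 with all. With both starts within 1000 bp, GC was 40.3% and the nearer start 156 bp away. With 50% mutual overlap, 50.4% were strong in both replicates. Windows of 50 bp on each side gave GC of 46.5% and a composite in 5.4%, and windows of 150 bp a composite in 18.3%. The excess over single-promoter peaks in the share strong in both replicates was 2.36, 5.23 and 2.03 points under the first 3 of these settings, with intervals that include 0. Leaving out either replicate left 48 of 50 values unchanged, the exceptions being respiratory chain genes (4) and splicing genes (6). No paired analysis was possible because the 2 samples are replicates of 1 group. Depth is unknown, so a pair without a peak cannot be called unbound. Direct binding by MAB-5 was not tested.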
